A study of Homo sapiens with 9 samples.

Results

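The genes described here are 41 genes of fatty acid metabolism, given by name and matched by symbol to the Ensembl identifiers of the deposited count table, which holds 60664 genes. They comprise 11 genes of synthesis, 6 of uptake and activation, 14 of triglyceride storage and export, and 10 of oxidation, and all 41 were present in the table. Of the 41 genes, 39 passed the filter on low counts and were tested among 17207 genes; LIPE and CIDEB did not. RNA was sequenced from Huh-7 cells, a human hepatocellular carcinoma (HCC) line, in 3 lines with 3 libraries each: wild type (WT), the vtRNA1-1 knockout (1-1 KO) and the vtRNA1-2 knockout (1-2 KO). Vault RNAs (vtRNAs) are short non-coding RNAs, named for the vault particle they were found in. Both knockouts were made with CRISPR/Cas9; the 1-2 KO is a clone grown from a single cell of the WT line, and the WT and 1-1 KO lines came from another laboratory. No group received a treatment, and all were grown in serum-containing medium. Each knockout is represented by 1 line, so a knockout and its line cannot be told apart, and the p-values measure the spread between libraries of a line. The study calls these libraries biological replicates. The libraries were made from polyadenylated RNA, and the targeted RNAs did not check the labels here: VTRNA1-1 had at most 1 count and VTRNA1-2 had 0 counts in every library, WT included.

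Liver cells make fatty acids from citrate, which ACLY splits into acetyl-CoA, ACACA carboxylates and FASN extends to palmitate; elongases and desaturases then lengthen and desaturate the chain. Fatty acids bound to coenzyme A are either esterified to glycerol and kept in lipid droplets or exported in lipoproteins, or they are carried into mitochondria by the carnitine shuttle and oxidized. SREBF1 and MLXIPL encode the transcription factors (SREBP1 and ChREBP) known for driving the synthesis genes in response to insulin and sugar.

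Total counts per library ranged from 32384469 to 41782387. Within lines, library 1 of the 1-2 KO stood apart most, with a root mean square log2 distance of 0.187 from the other libraries of its line, against 0.127 and 0.133 for libraries 2 and 3. Without it, 32 members were called in the 1-1 KO and 27 in the 1-2 KO compared to WT, beside 11433 and 9041 of all 17540 genes tested in that fit. WT library 3 was next, with a distance of 0.157 from the other WT libraries. All 9 hepatocyte and hepatoma markers were above the floor of 3 counts in each line. Their summed level was 8460 to 8855 TPM, a level scaled to transcript length and library total, in WT, 26274 to 26891 in the 1-1 KO and 17811 to 19185 in the 1-2 KO. By the test given below, 7 of the 9 were higher and 1 lower in the 1-1 KO than in WT. In the 1-2 KO 4 were higher and 2 lower, beside 63.4% and 54.4% of all tested genes called in the 2 knockouts. The median log2 fold change of the 9 markers was 0.58 and 0.06, so the sums do not describe each marker. The summed level of 7 adipocyte markers was at most 5.85 TPM in any library. Of 7 fibroblast or stellate cell markers, 5 were above the floor in WT and 6 in each knockout, with sums of 229 to 245 TPM in WT, 326 to 344 in the 1-1 KO and 116 to 126 in the 1-2 KO. They were led by LUM, while DCN had at most 5 counts and THY1 at most 1. Of the 5 tested, 3 were called higher and 1 lower in the 1-1 KO than in WT (median log2 0.39). For the 1-2 KO, 4 were called higher and 1 lower (median log2 0.98), beside the shares of all tested genes just given. The lower sum in that line therefore does not describe each of these markers. The 6 endothelial markers summed to 3.65 to 3.90 TPM in WT, 3.26 to 3.73 in the 1-1 KO and 0.444 to 0.588 in the 1-2 KO, with KDR at 0 in every library. The 7 blood cell markers summed to at most 7.47 TPM, with HBB and SPI1 at 0. These marker sums moved with the lines, and their part in the results was not tested. In bulk RNA, a lower share of cells expressing a gene and less RNA per cell cannot be told apart.

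The question was how the genes of each branch differed between the lines. In the 1-1 KO, 19 members were upregulated and 12 downregulated compared to WT (edgeR's quasi-likelihood test, Benjamini-Hochberg adjusted p under 0.05), that is 31 of 39, while 63.4% of all tested genes passed the same test, 32.5% upward and 30.9% downward. In the 1-2 KO, 12 members were upregulated and 12 downregulated, that is 24 of 39, beside 54.4% of all tested genes, 28.2% upward and 26.2% downward. Between the knockouts, 15 members were higher and 15 lower in the 1-2 KO than in the 1-1 KO, beside 65.3% of all tested genes, 33.1% upward and 32.2% downward. Most changes were small: at 2-fold or more, the 1-1 KO had 2 members up and 1 down, beside 13.4% of all tested genes (9.4% up and 3.97% down). The 1-2 KO had 3 up and 2 down, beside 11.7% (8.62% and 3.06%), and 1 member was higher and 1 lower between the knockouts, beside 14.1% (7.33% and 6.81%). The median log2 fold change of the members was 0.11 in the 1-1 KO and 0.09 in the 1-2 KO, and over all tested genes it was 0.01 and 0.02. The split depended on scaling: by library size alone, the 1-2 KO had 20 members up and 8 down while all tested genes also shifted, to 33.3% up and 22.1% down, and after the median of the 50 nearest tested genes was subtracted from each gene, the 1-1 KO had 16 up and 16 down, beside 28.6% and 29.5% of all tested genes.

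**Figure D1:**
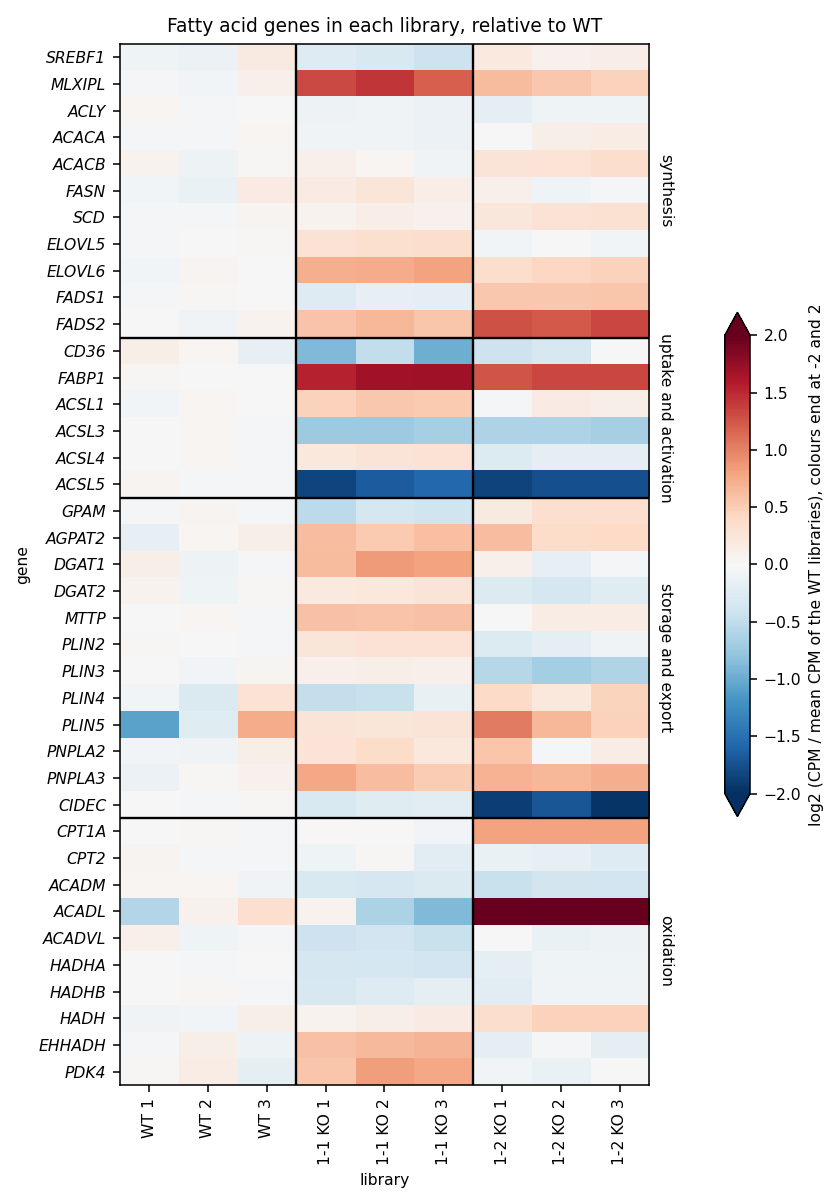
Level of each of the 39 tested genes (rows, by role) in each of the 9 libraries (columns), as the log2 ratio of CPM, counts scaled to library size, to the mean of the 3 WT libraries; red is above and blue below the WT mean, and colours end at -2 and 2. FABP1 is red in all 6 knockout libraries and ACSL5 blue in all 6, whereas CIDEC is deep blue, and CPT1A and ACADL are red, in the 3 libraries of the 1-2 KO.

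**Figure D2:**
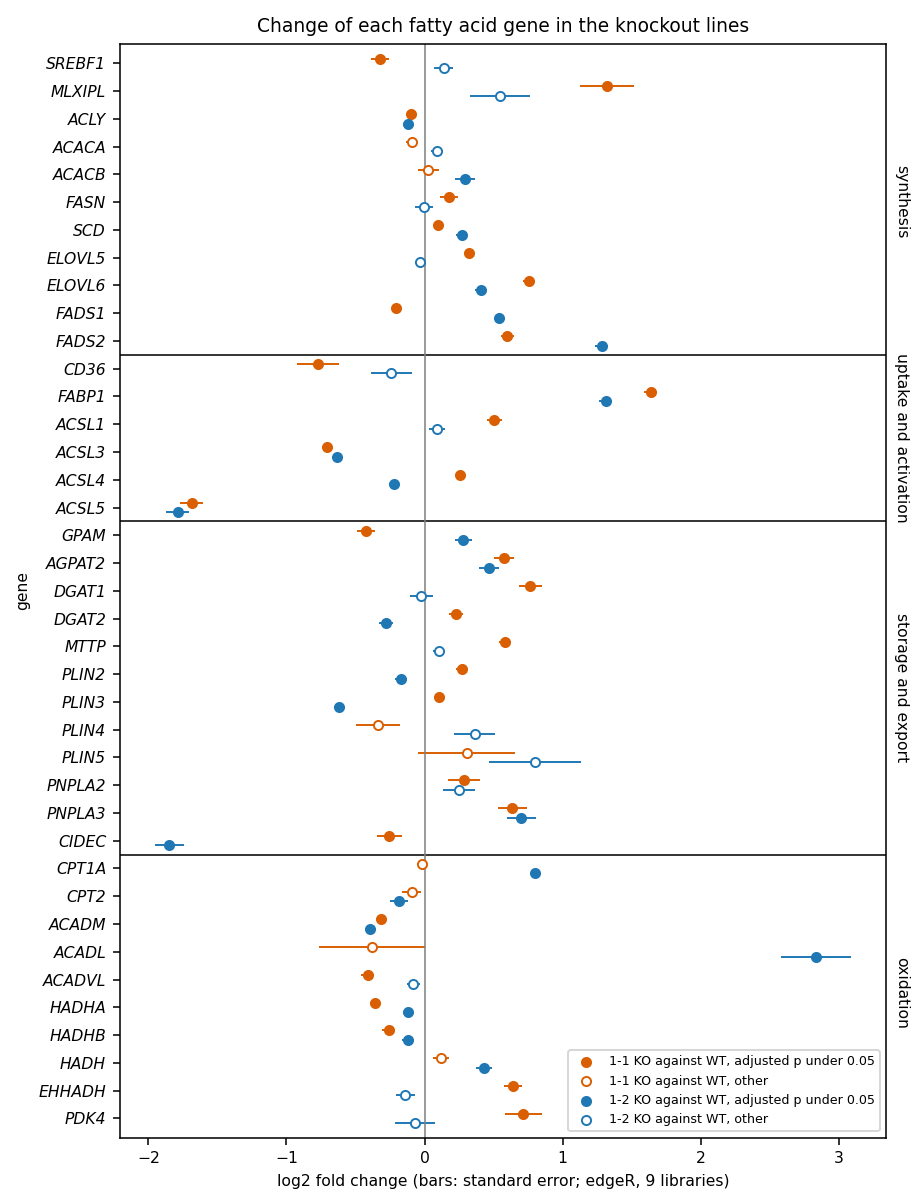
Log2 fold change compared to WT (horizontal axis) of each tested gene (vertical axis, by role) in the 1-1 KO (orange) and the 1-2 KO (blue), with bars for the standard error; filled points had an adjusted p under 0.05. The points lie between -1.85 for CIDEC and 2.84 for ACADL, both in the 1-2 KO, and most lie within 1 of zero.

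By level per length, SCD was the most abundant member in WT, at 684 ± 28.2 TPM (SD, n = 3), followed by ACLY at 394 ± 7.84, MTTP at 244 ± 5.72 and FASN at 192 ± 20.7. The least abundant were LIPE at 0.0461 ± 0.0288 TPM and CIDEB at 0.0849 ± 0.0488, with 1 to 7 and 1 to 6 counts per library. LIPE encodes hormone-sensitive lipase and CIDEB a lipid droplet protein of hepatocytes; every exonic base of CIDEB is also covered by exons on the other strand, of NOP9 and LTB4R2. Summed over the 11 synthesis genes, the level was 1710 ± 63.1 TPM in WT, 1927 ± 55.2 in the 1-1 KO and 2137 ± 29.1 in the 1-2 KO. The 6 uptake and activation genes summed to 351 ± 7.18, 468 ± 16.9 and 379 ± 8.72 TPM in the same order. The 14 storage and export genes summed to 739 ± 15.3, 1007 ± 5.76 and 756 ± 6.74 TPM, and the 10 oxidation genes to 529 ± 3.32, 459 ± 5.90 and 554 ± 8.97. Thus the summed levels of synthesis were highest in the 1-2 KO, those of storage and of uptake in the 1-1 KO, and that of oxidation was lowest in the 1-1 KO, with no overlap between the 1-1 KO libraries and the WT libraries in any branch. These sums are led by the abundant genes and are given as a description. In the uptake sum, FABP1 alone was at 51.4 TPM in WT and 167 in the 1-1 KO. Of the 6 uptake and activation genes, 3 were called higher and 3 lower in the 1-1 KO, beside 63.4% of all tested genes called. The uptake sum therefore does not describe each gene.

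**Figure D3:**
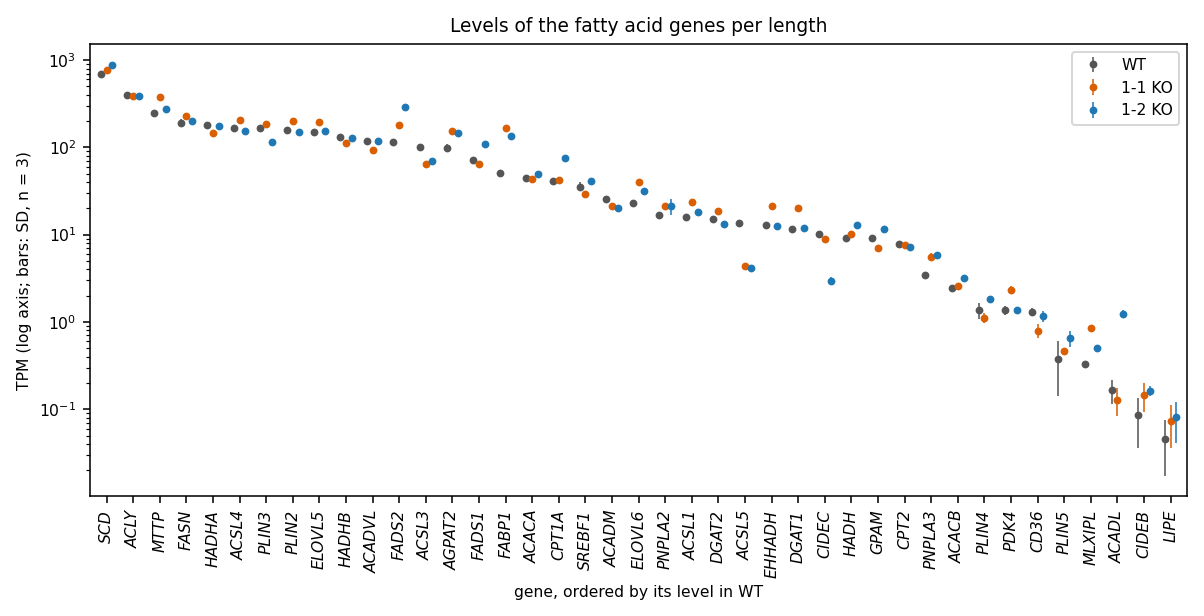
Level of each of the 41 genes in TPM (vertical log axis) in WT (grey), the 1-1 KO (orange) and the 1-2 KO (blue); points are means and bars SD of 3 libraries, and genes are ordered by their level in WT. The levels span from 684 TPM for SCD to 0.0461 TPM for LIPE in WT, and ACSL5, CIDEC and ACADL show the widest gaps between lines.

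Of the 11 synthesis genes, 6 were upregulated and 3 downregulated in the 1-1 KO, beside 32.5% and 30.9% of all tested genes. In the 1-2 KO, 5 were upregulated and 1 downregulated, beside 28.2% and 26.2%. Scaled by library size alone, with the shift of all genes given above, the counts in the 1-2 KO became 8 and 0. The median log2 fold change of the 11 genes was 0.10 in the 1-1 KO and 0.27 in the 1-2 KO. The clearest change of this branch in the 1-2 KO lay in the desaturase FADS2 (ENSG00000134824, chromosome 11, 61792980 to 61867354, plus strand), which introduces the delta-6 double bond into polyunsaturated fatty acids. Its level was 317, 302 and 335 CPM in the WT libraries, 475, 505 and 467 in the 1-1 KO and 770.4, 747 and 808 in the 1-2 KO. The 3 lines did not overlap and stood in the order WT, 1-1 KO, 1-2 KO. The log2 fold change was 0.60 ± 0.05 (SE, n = 3, adjusted p = 5.15e-08) in the 1-1 KO and 1.28 ± 0.05 (adjusted p = 2.75e-11), or 2.44-fold, in the 1-2 KO, and the knockouts differed by 0.68 ± 0.05 (adjusted p = 9.56e-09).

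FADS1, the delta-5 desaturase that acts after FADS2 in the same pathway, lies beside it on the minus strand (ENSG00000149485, 61799627 to 61829318). It was at 189, 196 and 191 CPM in WT, at 160.3, 172 and 168 in the 1-1 KO and at 279, 278 and 282 in the 1-2 KO. Unlike FADS2, FADS1 fell in the 1-1 KO, by 0.20 on the log2 scale (adjusted p = 0.000134), a call that was lost once the median of its neighbours was subtracted (-0.04), and it rose by 0.54 ± 0.03 in the 1-2 KO (adjusted p = 9.69e-09). The knockouts differed by 0.75 ± 0.03 (adjusted p = 1.98e-10). The annotations of both genes overlap on opposite strands over 4.79% of the exonic length of FADS1 and 4.64% of that of FADS2, and whether the counting used the strand is not stated.

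The delta-9 desaturase SCD (ENSG00000099194, chromosome 10, 100347233 to 100364826, plus strand), which makes oleate from stearate, was at 923, 936 and 986 CPM in WT, at 999.6, 1040.3 and 1005 in the 1-1 KO and at 1105, 1153 and 1169 in the 1-2 KO. Every 1-2 KO library was above every other library. SCD rose by 0.27 ± 0.04 on the log2 scale in the 1-2 KO (adjusted p = 3.08e-05). It was 0.10 ± 0.04 higher in the 1-1 KO (adjusted p = 0.0342), a call lost when any library of either line except WT library 3 was left out (adjusted p up to 0.14). DESeq2's Wald test and edgeR with no filter on low counts did not make this call either (adjusted p = 0.056 and 0.13). The promoter of SCD is shown because SCD was the most abundant member. In the 250 bases before its RefSeq start on GRCh38.p14 it holds 2 CCAAT boxes, the letters bound by the factor NF-Y, given in capitals in these 2 stretches of the plus strand, at chr10:100346984-100347028 and chr10:100347027-100347071, 5′ to 3′:
SCD, upstream CCAAT box: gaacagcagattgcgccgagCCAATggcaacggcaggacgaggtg
SCD, downstream CCAAT box: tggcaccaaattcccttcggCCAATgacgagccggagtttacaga

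CCAAT on either strand was found in the promoters of 10 of the 36 members with a RefSeq promoter (27.8%) and in 33.0% of all 27305 promoters. The E-box CACGTG, the core of the motif read by ChREBP and other factors, was found in 2 of 36 (ELOVL5 and PLIN2) and in 6.49% of all promoters. The sterol element TCACNCCAC was found in 1 of 36 (PNPLA2) and in 0.875% of all, and the direct repeat AGGTCANAGGTCA, a motif of PPAR type receptors, in 0 of 36 and 0.0183% of all. These are matches of letters in 1 window per gene and do not show binding.

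The transcription factor genes differed between the lines. SREBF1 (ENSG00000072310, chromosome 17, 17810399 to 17837002, minus strand) was at 72.9, 71.3 and 87.8 CPM in WT, at 64.5, 62.6 and 58.0 in the 1-1 KO and at 88.2, 81.7 and 85.0 in the 1-2 KO. All 1-1 KO libraries were below all WT libraries, and those of the 1-2 KO overlapped with WT, whose library 3 was high. SREBF1 fell by 0.32 on the log2 scale in the 1-1 KO (SE 0.07, adjusted p = 0.000792); in the 1-2 KO the difference from WT was 0.14 ± 0.07 (adjusted p = 0.0968), and without WT library 3 it was 0.22 (adjusted p = 0.0027). The latter difference was also called with library size alone or no filter on low counts (adjusted p = 0.029 and 0.037). MLXIPL (ENSG00000009950, chromosome 7, 73593194 to 73624543, minus strand) was low in all lines, with 16, 15 and 14 counts in WT, 44, 46 and 39 in the 1-1 KO and 27, 24 and 23 in the 1-2 KO. It rose 2.50-fold in the 1-1 KO (log2 1.32 ± 0.20, adjusted p = 4.16e-05), and in the 1-2 KO the log2 difference was 0.55 ± 0.22 (adjusted p = 0.0699), although its libraries did not overlap with WT. With library size alone, MLXIPL was called higher in the 1-2 KO (0.60, adjusted p = 0.044).

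FASN (ENSG00000169710, chromosome 17, 82078338 to 82098294, minus strand), the fatty acid synthase, was at 458, 433 and 528 CPM in WT, at 529, 557 and 521 in the 1-1 KO and at 506, 446 and 465 in the 1-2 KO. The ranges of all 3 lines touched or overlapped, except that the 1-2 KO lay below the 1-1 KO. The log2 fold change in the 1-1 KO was 0.18 ± 0.06 (adjusted p = 0.0255), while the median of its 50 nearest tested genes was 0.43, and without WT library 1 or 2 or 1-1 KO library 2 the call was lost (adjusted p 0.088, 0.14 and 0.097). FASN was at 472 ± 30.9 CPM in the 1-2 KO, beside 473 ± 49.4 in WT (adjusted p = 0.985). Of the enzymes around it, ACLY fell by 0.09 in the 1-1 KO and by 0.12 in the 1-2 KO (adjusted p = 0.0462 and 0.018); the former call was lost when any library of either line except WT library 2 was left out (adjusted p up to 0.15), and the latter without WT library 1 (adjusted p = 0.071). ACACA differed from WT by -0.09 and 0.09 (adjusted p = 0.0835 and 0.0857), and both were called without 1-2 KO library 1 (adjusted p = 0.022 and 0.004). The former was also called with DESeq2's size factors, with only the 2 lines compared and after subtraction of the neighbours' median (-0.21, adjusted p = 0.0007), and the latter with library size alone (adjusted p = 0.0052). ACACB, the carboxylase isoform at the mitochondrial membrane, rose in the 1-2 KO by 0.29 (adjusted p = 0.00387). The elongase ELOVL6, which extends palmitate to stearate, rose in both, by 0.76 ± 0.04 in the 1-1 KO (adjusted p = 2.63e-09) and 0.41 ± 0.04 in the 1-2 KO (adjusted p = 2.3e-06). ELOVL5, which elongates polyunsaturated chains, rose by 0.32 in the 1-1 KO (adjusted p = 2.01e-06), and in the 1-2 KO it was at -0.03 while its neighbours had a median of -0.43.

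All 6 uptake and activation genes were called in the 1-1 KO, 3 upward and 3 downward, beside 63.4% of all tested genes. In the 1-2 KO 1 rose and 3 fell, beside 54.4% of all tested genes called in either direction. FABP1 (ENSG00000163586, chromosome 2, 88122982 to 88128062, minus strand), the liver fatty acid binding protein, had the largest rise of any member in the 1-1 KO. It was at 33.2, 32.5 and 32.7 CPM in WT, at 95.1, 105 and 106 in the 1-1 KO and at 78.8, 82.9 and 82.9 in the 1-2 KO. Both knockouts lay above WT without overlap, and the 1-1 KO lay above the 1-2 KO. The rise was 3.12-fold in the 1-1 KO (log2 1.64 ± 0.05, adjusted p = 2.37e-12) and 2.48-fold in the 1-2 KO (log2 1.31 ± 0.05, adjusted p = 2.58e-11). The knockouts differed by -0.33 ± 0.04 (adjusted p = 1.44e-05), which became -0.09 (adjusted p = 0.091) after subtraction of the neighbours' median. FABP1 is itself a product of hepatocytes, and the summed hepatoma markers stood in the same order of lines, as given above. The median log2 fold change of those markers was 0.06 in the 1-2 KO, and a link between them and FABP1 was not tested.

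ACSL5 (ENSG00000197142, chromosome 10, 112374116 to 112428379, plus strand), a long-chain acyl-CoA synthetase, moved the other way. Its level was 15.4, 14.6 and 14.6 CPM in WT, 4.16, 4.69 and 4.98 in the 1-1 KO and 4.11, 4.39 and 4.39 in the 1-2 KO. The knockouts overlapped with each other and lay far below WT. ACSL5 fell by 1.69 on the log2 scale in the 1-1 KO (SE 0.08, adjusted p = 4.45e-10), or 3.22-fold, and by 1.79 in the 1-2 KO (SE 0.08, adjusted p = 3.4e-10), or 3.45-fold. The difference between the knockouts was -0.10 ± 0.09 (adjusted p = 0.341). Its paralog ACSL3, the synthetase of lipid droplets and the endoplasmic reticulum, was at 375 to 396 CPM in WT, and fell by 0.71 in the 1-1 KO (adjusted p = 5.81e-10) and by 0.63 in the 1-2 KO (adjusted p = 2.33e-09).

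The other synthetases were called higher in the 1-1 KO. ACSL4, which prefers arachidonate, rose by 0.25 in the 1-1 KO (adjusted p = 2.84e-05) and fell by 0.22 in the 1-2 KO (adjusted p = 0.000156); the difference of -0.47 ± 0.04 between the knockouts had an adjusted p of 4.44e-08. ACSL1, the main synthetase of hepatocytes, rose by 0.51 ± 0.06 in the 1-1 KO (adjusted p = 1.81e-06), but the median of its 50 nearest tested genes was 0.78, and relative to them it was lower, by 0.28. The fatty acid transporter CD36 was low, at 3.75 ± 0.380 CPM in WT, and fell by 0.77 in the 1-1 KO (SE 0.15, adjusted p = 0.000495); the log2 difference in the 1-2 KO was -0.24 ± 0.15 (adjusted p = 0.182).

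Of the 12 tested storage and export genes, 8 were upregulated and 2 downregulated in the 1-1 KO, beside 32.5% and 30.9% of all tested genes. The 1-2 KO had 3 and 4, beside 28.2% and 26.2%, and there scaling by library size alone, which shifted all genes as given above, gave 7 and 4. The medians were 0.28 and 0.18. Compared directly, 6 of the 12 were lower and 2 higher in the 1-2 KO than in the 1-1 KO, with a median of -0.28, beside 32.2% and 33.1% of all tested genes. MTTP (ENSG00000138823, chromosome 4, 99564081 to 99623997, plus strand), which loads lipid onto apolipoprotein B for export, was at 331, 339 and 324 CPM in WT, at 499, 493 and 496 in the 1-1 KO and at 331, 366 and 369 in the 1-2 KO. The 1-1 KO lay above both other lines, and library 1 of the 1-2 KO lay within the WT range. MTTP rose by 0.58 ± 0.04 in the 1-1 KO (adjusted p = 2.37e-08), with a neighbours' median of 0.36, and the 1-2 KO differed from WT by 0.10 ± 0.04 (adjusted p = 0.0513); without 1-2 KO library 1 this was 0.15 (adjusted p = 0.000625), and it was also called with library size alone, at least 10 counts in each library and the neighbours' median subtracted (adjusted p = 0.0024, 0.028 and 0.0079).

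DGAT2 and DGAT1 encode unrelated enzymes that add the last fatty acid to a triglyceride. DGAT2 (ENSG00000062282, chromosome 11, 75759512 to 75801535, plus strand) was at 33.2, 29.7 and 32.0 CPM in WT, at 36.3, 36.7 and 38.0 in the 1-1 KO and at 26.3, 25.1 and 26.9 in the 1-2 KO. The knockouts lay on opposite sides of WT, with no overlap. DGAT2 rose by 0.23 ± 0.05 in the 1-1 KO (adjusted p = 0.00166) and fell by 0.28 in the 1-2 KO (SE 0.05, adjusted p = 0.000473), and the direct difference was -0.50 ± 0.05 (adjusted p = 1e-06). DGAT1 rose by 0.77 ± 0.08 in the 1-1 KO (adjusted p = 1.58e-06, neighbours' median 0.51) and was at 12.3 ± 1.11 CPM in the 1-2 KO beside 12.5 ± 0.917 in WT (adjusted p = 0.842, neighbours' median 0.26); relative to its neighbours it was lower in the 1-2 KO, by 0.28 (adjusted p = 0.012). Earlier in the same route, the acyltransferase AGPAT2 rose in both knockouts, by 0.58 and 0.47, while GPAM, which esterifies glycerol-3-phosphate, fell by 0.42 in the 1-1 KO (adjusted p = 4.36e-05) and rose by 0.28 in the 1-2 KO (adjusted p = 0.00141). The direct difference for GPAM was 0.70 ± 0.06 (adjusted p = 1.9e-07).

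Among the perilipins, which coat lipid droplets, PLIN2 (ENSG00000147872, chromosome 9, 19108375 to 19149290, minus strand) is the usual form in hepatocytes. It was at 215, 212 and 209 CPM in WT, at 251, 259 and 259 in the 1-1 KO and at 176, 188 and 202 in the 1-2 KO. The 3 lines did not overlap, with the 1-1 KO highest and the 1-2 KO lowest. PLIN2 rose by 0.27 ± 0.04 in the 1-1 KO (adjusted p = 8.33e-05) and fell by 0.17 in the 1-2 KO (SE 0.04, adjusted p = 0.0049). The direct difference was -0.44 ± 0.04 (adjusted p = 6.47e-07). PLIN3 followed in the 1-2 KO, where it fell by 0.62 (SE 0.04, adjusted p = 7.34e-09). Its rise of 0.11 ± 0.04 in the 1-1 KO (adjusted p = 0.0229) was below its neighbours' median of 0.33 and was not called without WT library 1 or 2 or 1-1 KO library 1 or 2 (adjusted p up to 0.11). Nor was this rise called with DESeq2's Wald test or with no filter (adjusted p = 0.076 and 0.13). PLIN4 and PLIN5, forms of fat and muscle, were low, with 9 to 41 counts per library for PLIN5, and had adjusted p-values above 0.05 compared to WT in both knockouts. These calls depended on the settings. Without WT library 3, PLIN5 was 0.85 higher in the 1-1 KO (adjusted p = 0.038) and 1.32 higher in the 1-2 KO (adjusted p = 0.0029), and without 1-2 KO library 3 it was 0.93 higher in the 1-2 KO (adjusted p = 0.046). PLIN4 was called lower in the 1-1 KO without WT library 2 or 1-1 KO library 3 (adjusted p = 0.027 and 0.045) and higher in the 1-2 KO without WT library 3 (adjusted p = 0.012). It was also called lower in the 1-1 KO with a replicate block (adjusted p = 0.048) and after subtraction of the neighbours' median (-0.64, adjusted p = 0.0035), and higher in the 1-2 KO with library size alone or the block (adjusted p = 0.033 and 0.032). PLIN5 was called higher in the 1-2 KO with library size alone or no filter (adjusted p = 0.046 and 0.016).

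The 2 rarest motifs matched in this branch are shown here. The first stretch is the E-box of PLIN2, on the minus strand at chr9:19127536-19127581, inside the annotated span of the gene but in no exon. The second is the sterol element of PNPLA2, upstream of the gene at chr11:818741-818789 on the plus strand, where the capitals hold the letters of the element on the opposite strand:
PLIN2, E-box: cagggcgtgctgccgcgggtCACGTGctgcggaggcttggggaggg
PNPLA2, sterol element: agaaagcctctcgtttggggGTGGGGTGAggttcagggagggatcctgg

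The largest fall of any member was that of CIDEC (ENSG00000187288, chromosome 3, 9866711 to 9880255, minus strand), a protein of lipid droplet fusion and growth. It was at 5.30, 5.17 and 5.33 CPM in WT, at 4.28, 4.47 and 4.49 in the 1-1 KO and at 1.42, 1.61 and 1.35 in the 1-2 KO. The lines did not overlap, and the gap was wide only between the 1-2 KO and the others. CIDEC fell by 1.85 on the log2 scale in the 1-2 KO (SE 0.11, adjusted p = 3.46e-09), or 3.60-fold. It was lower by 0.26 in the 1-1 KO (SE 0.09, adjusted p = 0.0263), and this call was lost when any library of either line except WT library 2 was left out (adjusted p up to 0.089). The call was also lost with DESeq2's Wald test, no filter or library size alone (adjusted p = 0.12, 0.076 and 0.063). The knockouts differed by -1.59 ± 0.11 (adjusted p = 9.98e-09). Of the lipases, PNPLA3 rose in both knockouts, by 0.64 ± 0.11 (adjusted p = 0.000112) and 0.70 ± 0.11 (adjusted p = 6.16e-05). PNPLA2, the main triglyceride lipase of droplets, was 0.28 ± 0.11 higher in the 1-1 KO (adjusted p = 0.0425), a call lost when any library of either line except WT library 3 was left out (adjusted p up to 0.13). Its libraries spread from 16.8 to 25.1 CPM in the 1-2 KO, and without library 2 of that line, the lowest, it was 0.37 higher than in WT (adjusted p = 0.01), whereas without library 1, the highest, it was 0.07 higher (adjusted p = 0.476). It was also called higher there with library size alone or no filter (adjusted p = 0.047 and 0.0048).

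**Figure D4:**
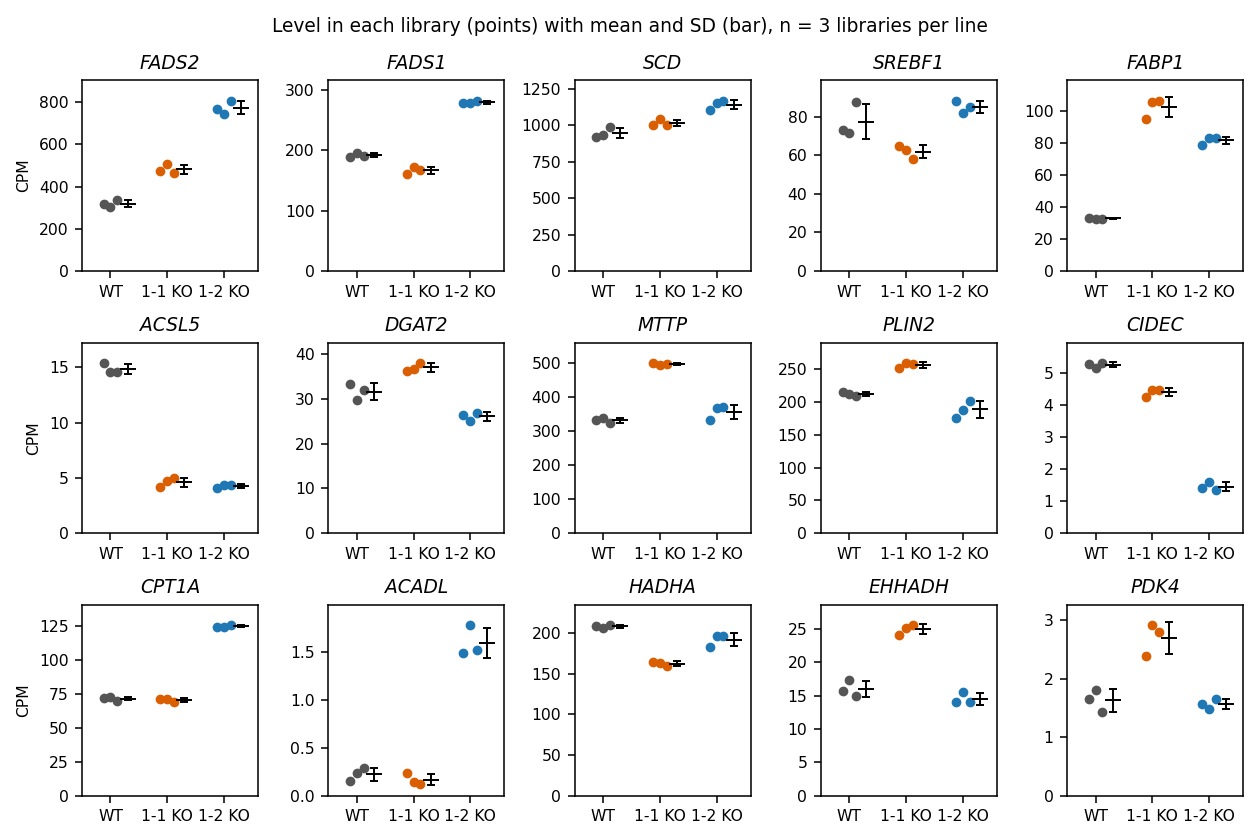
Level in CPM (vertical axis, from 0) of 15 members in each library of WT (grey), the 1-1 KO (orange) and the 1-2 KO (blue); points are libraries and the bar beside them is the mean with its SD (n = 3). ACSL5 is near 15 CPM in WT and below 5 in both knockouts, CPT1A is above 120 CPM in the 1-2 KO and below 75 in the other lines, and DGAT2 and PLIN2 lie above WT in the 1-1 KO and below it in the 1-2 KO.

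Of the 10 oxidation genes, 2 were upregulated and 4 downregulated in the 1-1 KO, beside 32.5% and 30.9% of all tested genes. The 1-2 KO had 3 and 4, beside 28.2% and 26.2%, and there scaling by library size alone, with the same shift of all genes, gave 3 and 1. The medians were -0.18 and -0.10. Directly compared, 6 of 10 were higher and 2 lower in the 1-2 KO than in the 1-1 KO, with a median of 0.19, beside 33.1% and 32.2% of all tested genes. CPT1A (ENSG00000110090, chromosome 11, 68754620 to 68844410, minus strand), the liver form of the carnitine palmitoyltransferase that controls entry into mitochondria, was at 71.8, 72.9 and 70.1 CPM in WT, at 71.2, 71.3 and 69.0 in the 1-1 KO and at 124, 124 and 126 in the 1-2 KO. The 1-1 KO and WT overlapped, and the 1-2 KO was set apart from both. CPT1A rose by 0.80 ± 0.03, or 1.74-fold, in the 1-2 KO (adjusted p = 9.57e-11), and the 1-1 KO differed from WT by -0.02 ± 0.03 (adjusted p = 0.594). The direct difference was 0.82 ± 0.03 (adjusted p = 4.04e-11).

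ACADL, the long-chain acyl-CoA dehydrogenase, had the largest change of any member but is nearly silent in WT; it is singled out here after its values were seen, since its mean over the 9 libraries was below 1 CPM. It had 6, 9 and 9 counts in WT, 10, 6 and 5 in the 1-1 KO, and 63, 71 and 61 in the 1-2 KO. The 1-2 KO libraries lay above all others, and the 1-1 KO overlapped with WT. ACADL rose 7.15-fold in the 1-2 KO (log2 2.84 ± 0.25, adjusted p = 3.54e-07), to 1.24 ± 0.130 TPM, which is far below ACADVL, the very-long-chain enzyme, at 119 ± 5.96 TPM in the same line.

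Of the enzymes of the mitochondrial spiral itself, HADHA, HADHB, ACADM and ACADVL fell in the 1-1 KO, whereas ACADL and HADH were not called there. HADHA (ENSG00000084754, chromosome 2, 26190635 to 26244672, minus strand), the alpha subunit of the trifunctional protein, was at 209, 206 and 209.6 CPM in WT, at 165, 163 and 159 in the 1-1 KO and at 183, 196 and 197 in the 1-2 KO. The lines did not overlap, and the 1-1 KO was lowest. HADHA fell by 0.36 in the 1-1 KO (SE 0.04, adjusted p = 7.91e-07) and by 0.12 in the 1-2 KO (SE 0.04, adjusted p = 0.0128), the latter not called with scaling by library size alone (-0.06, adjusted p = 0.11). HADHB, the beta subunit, whose gene adjoins HADHA, fell by 0.26 in the 1-1 KO (adjusted p = 0.000131). Its change was -0.12 in the 1-2 KO (adjusted p = 0.0365), and this call was lost without WT library 1 or 2 or 1-2 KO library 1 (adjusted p 0.055, 0.11 and 0.14). ACADM, the medium-chain dehydrogenase, fell by 0.31 in the 1-1 KO (adjusted p = 9.62e-06) and by 0.39 in the 1-2 KO (adjusted p = 1.36e-06). ACADVL fell by 0.41 in the 1-1 KO (adjusted p = 3.37e-06), and HADH, which acts on shorter chains, rose by 0.43 in the 1-2 KO (adjusted p = 1.98e-05). The difference of HADH in the 1-1 KO was 0.12 ± 0.06 (adjusted p = 0.0877), which was called higher without WT library 3 or scaled by library size alone (adjusted p = 0.0068 and 0.016) and lower, by 0.31, relative to its neighbours (adjusted p = 0.000364). CPT2, at the inner membrane, was at -0.09 and -0.19 (adjusted p = 0.245 and 0.0332), with neighbours' medians of -0.17 and -0.32, and the latter call was lost without WT library 1 or 1-2 KO library 2 or 3 (adjusted p up to 0.12).

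Both members that rose in the 1-1 KO in this branch are outside the spiral. PDK4 (ENSG00000004799, chromosome 7, 95583499 to 95596516, minus strand), a kinase that shuts off pyruvate dehydrogenase, was at 1.66, 1.81 and 1.43 CPM in WT, at 2.39, 2.92 and 2.79 in the 1-1 KO and at 1.57, 1.48 and 1.65 in the 1-2 KO. The 1-1 KO lay above the others, which overlapped. PDK4 rose by 0.72 ± 0.14 (adjusted p = 0.000359) in the 1-1 KO, and the 1-2 KO differed from WT by -0.07 ± 0.15 (adjusted p = 0.723). EHHADH, the bifunctional enzyme of peroxisomes, rose by 0.64 ± 0.07 in the 1-1 KO (adjusted p = 1.3e-06), and differed from WT by -0.14 ± 0.07 in the 1-2 KO (adjusted p = 0.106), a difference called without WT library 3 or 1-2 KO library 2 (adjusted p = 0.027 and 0.049). The knockouts differed by -0.78 for each of these genes (adjusted p = 0.000138 and 1.41e-07).

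Because neighbouring genes moved together along some chromosomes, each member was set beside its 50 nearest tested genes. For the 1-1 KO, the neighbours of ACSL1, DGAT1, HADH, FASN and ELOVL6 had medians of 0.78, 0.51, 0.43, 0.43 and 0.41. The most extreme median in the 1-2 KO was -0.43, around ELOVL5. The neighbours of FADS2, FABP1 and CIDEC in the 1-2 KO, in contrast, had medians of 0.00, 0.01 and -0.05, and those of ACSL5 were at -0.23 and -0.21 in the 1-1 KO and the 1-2 KO. The changes of these 4 genes exceeded their neighbours' medians several times over. For other members, subtraction of the neighbours' median moved the log2 fold change by more than 1.5 times while the call was kept. It reduced ELOVL6 to 0.35, MTTP to 0.22, DGAT1 to 0.26, AGPAT2 to 0.32, ACSL4 to 0.14, GPAM to -0.19 and ACADM to -0.12 in the 1-1 KO, and AGPAT2 to 0.21 and ACADM to -0.12 in the 1-2 KO. It enlarged SCD to 0.23, DGAT2 to 0.38, PLIN2 to 0.44, PNPLA2 to 0.46 and ACLY to -0.16 in the 1-1 KO, and ACACB to 0.51, SCD to 0.42, GPAM to 0.51, HADHA to -0.21 and HADHB to -0.20 in the 1-2 KO. Between the knockouts, PLIN2 was enlarged to -0.69 and HADH to 0.80, and ACSL4 was reduced to -0.29 and HADHA to 0.10. The subtraction ended the calls of ACLY in the 1-2 KO (-0.09, adjusted p = 0.0758) and of CIDEC in the 1-1 KO (-0.20, adjusted p = 0.0778). It also ended those of MTTP (-0.07, adjusted p = 0.139) and HADHB (0.01, adjusted p = 0.809) between the knockouts.

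**Figure D5:**
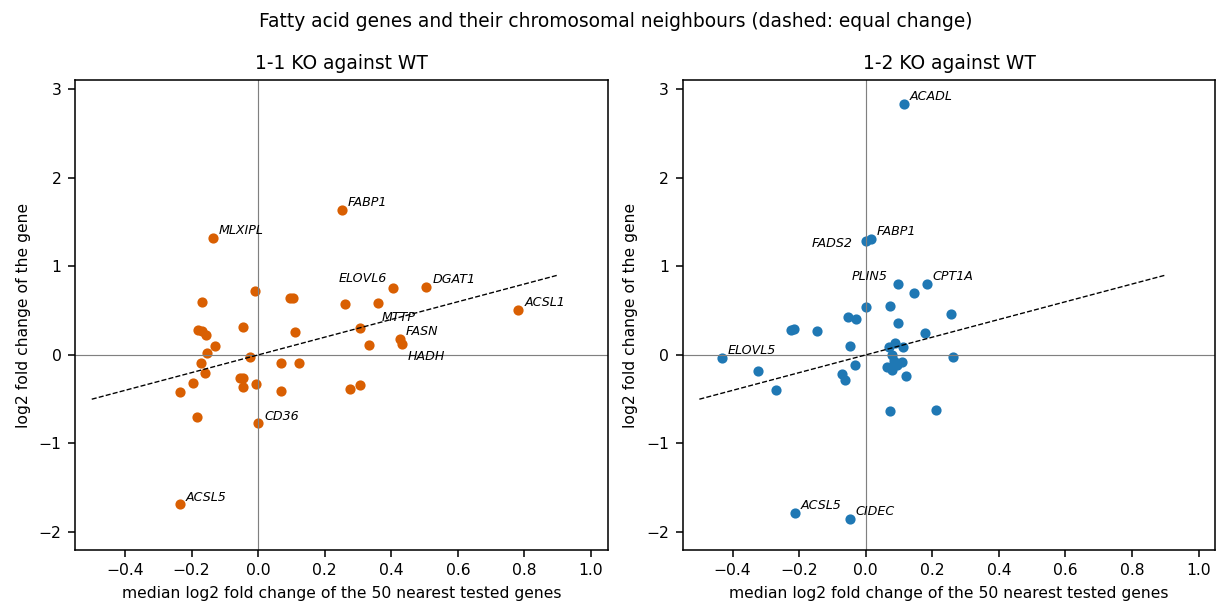
Log2 fold change of each tested member (vertical axis) against the median log2 fold change of its 50 nearest tested genes (horizontal axis), for the 1-1 KO (left) and the 1-2 KO (right); each point is a gene and the dashed line marks equal change. ACSL1 lies under the line in the 1-1 KO, with 0.51 against 0.78, while FABP1 and ACSL5 lie far from it in both knockouts and CIDEC and ACADL in the 1-2 KO.

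The wider pathway was read from 106 other genes, of which 93 were tested. Of these, 36 rose and 31 fell in the 1-1 KO (72.0% called), and in the 1-2 KO 26 rose and 38 fell (68.8% called), beside the shares of all genes given above. Among the other synthesis genes, malic enzyme ME1, a source of NADPH, fell in both knockouts, from 316 ± 7.80 CPM in WT to 157 ± 1.27 and 161 ± 8.07, by 1.01 and 0.98 on the log2 scale (adjusted p = 5.43e-11 and 8.35e-11). The elongase ELOVL1 fell by 0.40 and 0.59 (adjusted p = 2.79e-06 and 8.46e-08), and TECR, the reductase of the elongation cycle, rose by 0.53 in the 1-1 KO (adjusted p = 1.75e-07). In uptake and binding, FABP5 and ACSF2 rose in the 1-1 KO by 0.47 and 0.40 (adjusted p = 1.79e-05 and 2.22e-05), and in the 1-2 KO SLC27A2 rose by 0.96 and the acyl-CoA binding protein DBI fell by 0.30 (adjusted p = 0.000171 and 0.000425).

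In storage and breakdown, GPAT3, a glycerol-3-phosphate acyltransferase like GPAM, fell by 1.30 in the 1-1 KO and by 0.99 in the 1-2 KO (adjusted p = 2.02e-09 and 3.6e-08). MGLL, which cleaves monoglycerides, was at 60.9 ± 2.67 CPM in WT, 103 ± 1.59 in the 1-1 KO and 30.8 ± 1.83 in the 1-2 KO. It rose by 0.76 in the former and fell by 0.98 in the latter (adjusted p = 3.87e-09 and 6.06e-10), and the direct difference was -1.75 ± 0.05 (adjusted p = 8.33e-13). AGPAT3 rose by 0.61 and 0.58 (adjusted p = 1.24e-08 and 2.66e-08), with neighbours' medians of 0.63 and 0.29. In mitochondrial oxidation, the kinase PDK2 rose by 1.29 and 1.94 (adjusted p = 7.06e-08 and 9.31e-10), from 2.12 ± 0.190 CPM in WT. ETFA, which takes electrons from the dehydrogenases, fell by 0.63 in the 1-1 KO (adjusted p = 1.19e-08), and ECI2, an isomerase for unsaturated chains, fell by 0.77 in the 1-2 KO (adjusted p = 1.18e-08).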

How the data were processed

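Stranded mRNA libraries of 9 samples were analysed, 3 per line. The deposited values are read counts per gene, without normalization; according to the study's methods the authors aligned reads with STAR to hg38 and counted them with featureCounts, whose strand setting and versions are not given in the sources used here. Symbols and positions came from GENCODE 44 (GRCh38), in which 60463 of 60664 identifiers were found, and promoters from RefSeq (GRCh38.p14).

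Counts were filtered with filterByExpr (minimum count 10, minimum total 15), which left 17207 genes, scaled by TMM and fitted with edgeR 4.0.16 in R 4.3.3, all 9 libraries in 1 fit with a term per line. The quasi-likelihood test was adjusted by Benjamini-Hochberg over all tested genes, with a threshold of 0.05. CPM use TMM-scaled library sizes and TPM do not; errors of CPM and TPM are SD, and those of fold changes SE. The biological coefficient of variation was 5.55%. Where an adjusted p is given, it is from this test unless another test or setting is named. The steps were tested on simulated data with few changed genes, split evenly by direction. Most tested genes were called in the real data, so the simulation does not test how they were scaled.

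The members, lists and tests were chosen with earlier results of these data known. Genes given in every library were the main regulators and enzymes of each branch and members with a mean of at least 1 CPM that changed at least 2-fold in a comparison. FADS1, set beside FADS2, and ACADL met neither rule and were added. The figure of levels in CPM also shows EHHADH, which met neither rule, and leaves out FASN and MLXIPL. Of the other pathway genes, the 2 with the smallest adjusted p per branch and knockout are named. Part of this selection is not reported here. Alternatives were DESeq2 1.42.0, other scalings, filters and thresholds, the neighbours' median, a replicate block and leaving out each library.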

Additional observations from a re-analysis of the deposited data

How the results depend on the processing

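The limits are those of 3 libraries from 1 line per knockout. MLXIPL, PLIN5 and ACADL rest on few counts. The cause of the changes below was not tested, except that a larger fold threshold removes small changes and leaving out a library reduces the sample.

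Replicate numbers did not pair the samples: correlations between the deviations of same-numbered libraries were between -0.19 and 0.05. Among all pairs of libraries from different lines, the highest correlation was 0.24, for WT library 3 and 1-2 KO library 1. With a replicate block, 18 members were higher and 12 lower in the 1-1 KO, 13 and 12 in the 1-2 KO, and 15 and 15 between the knockouts, and no direction changed. The shares of all tested genes with the block were, in the same order, 31.6% and 29.9%, 27% and 25.2%, and 32.1% and 31.4%. Requiring a log2 fold change of at least 0.5 left 11 higher and 3 lower in the 1-1 KO, beside 18.6% and 12.7% of all tested genes (synthesis 3 and 0, storage 4 and 0, oxidation 0 lower). It left 6 and 4 in the 1-2 KO, beside 14.8% and 9.3% (synthesis 2 and 0, storage 1 and 2, oxidation 0 lower). Between the knockouts it left 7 and 7, beside 17.3% and 16.9% (synthesis 2 and 1, uptake 0 lower, oxidation 2 higher). Scaling by library size alone gave 20 higher in the 1-2 KO, beside 33.3% of all tested genes (synthesis 8 higher and 0 lower, uptake 2 higher, storage 7 higher, oxidation 1 lower). Lower storage genes numbered 1 in the 1-1 KO with library size alone, no filter, DESeq2 or an adjusted p under 0.01. For the 1-2 KO, 0 synthesis genes were lower with the neighbours' median subtracted or an adjusted p under 0.01, 5 storage genes were higher with no filter and 1 oxidation gene was lower at 0.01. Between the knockouts, subtracting the neighbours gave 1 synthesis gene lower and 2 uptake genes higher.

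Leaving out a library gave 15 to 21 members higher and 10 to 13 lower in the 1-1 KO, 12 to 15 and 9 to 13 in the 1-2 KO, and 14 to 15 and 14 to 17 between the knockouts. Of all 17527 to 17651 genes tested in these fits, 5191 to 5874 were higher and 4854 to 5559 lower in the 1-1 KO. The counts over all genes were 4364 to 4782 and 4176 to 4684 in the 1-2 KO, and 5265 to 5777 and 5161 to 5956 between the knockouts. By branch, the member counts in the 1-1 KO were 4 to 6 and 2 to 4 for synthesis, 3 and 3 for uptake, 6 to 9 and 1 to 3 for storage (1 lower without WT library 1 or 3 or 1-1 KO library 1 or 2), and 2 to 3 and 4 for oxidation. The 1-2 KO had 5 to 6 and 0 to 1 for synthesis (0 lower without WT library 1), 1 to 2 and 3 for uptake (2 higher without 1-2 KO library 1), 3 to 5 and 4 for storage (5 higher without WT library 3), and 3 and 2 to 5 for oxidation (2 lower without WT library 1). Between the knockouts they were 6 and 3 to 4, 1 and 3, 2 and 6 to 8, and 5 to 6 and 2 to 3.

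Subtracting the neighbours' median turned the log2 fold change in the 1-1 KO for FASN (-0.25), ACSL1 (-0.28), PLIN3 (-0.23), HADH (-0.31), CPT1A (0.00445) and CPT2 (0.0796). It turned ACACA (-0.0211), ELOVL5 (0.40) and CPT2 (0.14) in the 1-2 KO, and ACLY (0.0760), FASN (0.17), ELOVL5 (0.0350), ELOVL6 (0.0841), ACSL1 (0.30), ACSL3 (-0.18) and CPT2 (0.0588) between the knockouts. Library size alone turned FASN (0.0544), ELOVL5 (0.0217) and DGAT1 (0.0333) in the 1-2 KO and CPT1A (0.0291) in the 1-1 KO. At least 10 counts in each library turned FASN in the 1-2 KO (0.000876) and CPT1A in the 1-1 KO (0.000575). Leaving out a library gave ACACB -0.0230 to 0.0714 and PLIN5 -0.0511 to 0.854 in the 1-1 KO, FASN -0.0621 to 0.0655, DGAT1 -0.0892 to 0.0415 and PDK4 -0.168 to 0.0125 in the 1-2 KO, and ACLY -0.0478 to 0.0126 and PNPLA2 -0.216 to 0.0843 between the knockouts.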

Other observations

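Peroxisomal oxidation was read from 16 other genes, all tested. Of these, 7 rose and 6 fell in the 1-1 KO, and 5 rose and 9 fell in the 1-2 KO, with 81.3% and 87.5% called beside 63.4% and 54.4% of all genes. ACOX3, an oxidase of branched chains, was at 58.7 ± 2.59 CPM in WT (SD, n = 3), 12.9 ± 1.11 in the 1-1 KO and 39.6 ± 1.33 in the 1-2 KO; it fell by 2.18 and 0.57 on the log2 scale (edgeR, adjusted p = 2.13e-12 and 1.07e-06). SCP2, which includes a peroxisomal thiolase, was at 267 ± 6.57, 218 ± 2.15 and 130.0 ± 6.06 CPM and fell by 0.29 and 1.04 (adjusted p = 1.27e-05 and 3.82e-11). ABCD3, a transporter of the peroxisomal membrane, fell by 0.58 and 0.31 (adjusted p = 3.45e-09 and 3.02e-06).

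Among genes of ketone body metabolism and export, the dehydrogenase BDH2 rose by 0.98 in the 1-1 KO and fell by 0.21 in the 1-2 KO (edgeR, adjusted p = 1.83e-09 and 0.00587). ACAT1 fell by 0.78 in the 1-1 KO (adjusted p = 5.28e-09), and the transporter SLC16A1 fell by 0.21 and 0.25 (adjusted p = 7.77e-05 and 1.97e-05). BDH1, chosen after its values were seen, was at 0.397 ± 0.114 CPM in WT and rose by 2.16 in the 1-1 KO (adjusted p = 3.82e-06).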
